A study of Mus musculus with 12 samples.

Results

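The CDK inhibitors and the pocket proteins are the brake on the cell cycle that a myoblast applies when it differentiates. Of 10 genes looked for by symbol in the deposited tables, 8 were found in all 12 libraries and all 8 passed the low-count filter, out of 16288 genes listed in at least 1 library. They were Cdkn1a (p21), Cdkn1b (p27), Cdkn1c (p57), Cdkn2c (p18), Cdkn2d (p19), Rb1 (pRB), Rbl1 (p107) and Rbl2 (p130). No value was read for Cdkn2a and Cdkn2b, which are not analysed here. The cells were C2C12, an immortalized mouse myoblast line, and total RNA was sequenced from 6 groups of 2 libraries, A and B. GM cells were proliferating in serum-rich medium. DM 24h and DM 48h cells were harvested 24 h and 48 h after a change to low-serum medium with insulin. At each stage 1 group received DMSO, the vehicle, and the other received 50 uM PFI-3, a ligand of bromodomains in BRM and BRG1, the ATPases of SWI/SNF chromatin remodellers. Exposure started 12 h ahead of harvest (GM) or formed a pretreatment of the same length (DM), with fresh compound every 24 h.

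CDK inhibitors block the kinases that drive the cell cycle. The Cip/Kip proteins p21, p27 and p57 bind complexes of cyclins with several CDKs, and the INK4 proteins p18 and p19 bind CDK4 and CDK6 and keep D-type cyclins off them. These kinases otherwise phosphorylate the pocket proteins pRB, p107 and p130, which in their less phosphorylated form hold E2F factors and keep genes of DNA replication low. In muscle, p21 and p57 are known for the lasting cell cycle exit of differentiating myoblasts. Rb1 is known to be required to keep myotubes out of the cycle, and Rbl1 is itself a known E2F target.

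The upstream sequences of a gene from each pattern are printed first. Cdkn1a was lower with PFI-3 during differentiation, Rbl1 was higher with it at DM 48h, and Rbl2 passed the test for PFI-3 at no stage. Each is the 250 bases before a transcript start in the RefSeq table (build GRCm38.p6), 5′ to 3′ on the strand of the gene. Cdkn1a has 2 starts there, and the second is shown, since the other holds no match to any motif searched. The RefSeq table matched 8 of the 10 symbols. Cdkn1c and Rb1 had no entry. Capitals mark CANNTG, the E-box core that MyoD family proteins bind, in Cdkn1a, and TTTNNCGC, an E2F-type motif, in Rbl1 and Rbl2.
Cdkn1a, chr17:29093519-29093768, plus strand: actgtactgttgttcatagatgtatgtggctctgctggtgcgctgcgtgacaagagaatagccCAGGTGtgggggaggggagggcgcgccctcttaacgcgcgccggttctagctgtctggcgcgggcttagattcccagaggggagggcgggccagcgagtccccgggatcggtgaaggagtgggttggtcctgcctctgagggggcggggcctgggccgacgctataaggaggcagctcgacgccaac
Rbl1, chr2:157204535-157204784, minus strand: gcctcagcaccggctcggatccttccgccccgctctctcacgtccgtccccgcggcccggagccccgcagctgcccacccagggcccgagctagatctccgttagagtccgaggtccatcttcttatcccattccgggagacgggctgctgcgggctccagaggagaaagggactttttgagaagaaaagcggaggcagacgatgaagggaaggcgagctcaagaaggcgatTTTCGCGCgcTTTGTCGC
Rbl2, chr8:91069807-91070056, plus strand: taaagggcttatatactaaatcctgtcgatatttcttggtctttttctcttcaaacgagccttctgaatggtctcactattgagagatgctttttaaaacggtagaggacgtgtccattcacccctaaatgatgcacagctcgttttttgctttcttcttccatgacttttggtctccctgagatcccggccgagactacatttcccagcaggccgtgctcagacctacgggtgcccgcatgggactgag

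Both strands were searched for each motif. Cdkn1a holds CAGGTG at -187 to -182, counted from the start, and 66.2% of 32851 promoters of the same length hold a CANNTG. Rbl1 holds TTTCGCGC at -18 to -11 and TTTGTCGC at -8 to -1. It also holds an E-box core, CAGCTG, at -183 to -178, which is left in lower case, and CAGCTG occurs in 13% of promoters. A TTTNNCGC occurs in 4.28% of the promoters. Rbl2 holds none of these letters in its window and so has no capitals. It has a match to TTTGAA, the letters of a CHR element through which MuvB complexes bind, at -201 to -196, as do 16% of promoters. These matches describe the letters only.

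Vehicle-treated cells set the background. From GM to DM 24h, 7 of the 8 genes rose and none fell in edgeR's quasi-likelihood test (adjusted p under 0.05), where 60.6% of the 12545 tested genes were called, 30.6% of tested genes as higher and 30.0% as lower. From DM 24h to DM 48h all 8 changed, 5 upward and 3 downward, against 48.1% of tested genes, with 24.2% higher and 23.9% lower. Between GM and DM 48h, 7 were called, 5 higher and 2 lower, against 73.1%, with 37.2% higher and 35.9% lower. Cdkn1c, Cdkn1a and Rb1 rose most, and Rbl1 fell at DM 48h to 0.325 of its GM level. With PFI-3, 6 of the 8 rose and 1 fell from GM to DM 24h, against 60.3% called, with 32.1% higher and 28.2% lower. From DM 24h to DM 48h 3 rose and 2 fell with PFI-3, against 27.3%, with 13.1% higher and 14.2% lower. With calls this common among all genes, the counts are no result about the 8 genes.

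Cdkn1a, Cdkn1c and Rb1 were lower with PFI-3 in differentiating cells, and Rbl1 and Cdkn2c were higher with it at DM 48h. In GM 1 of the 8 genes was called (Rbl1, higher), where 11.6% of tested genes were called 5.46% as higher and 6.15% as lower. At DM 24h 4 were called (Cdkn1a, Cdkn1c and Rb1 lower, Cdkn1b higher), against a background of 23.6%, with 12.2% higher and 11.4% lower. At DM 48h 5 were called (Cdkn1a, Cdkn1c and Rb1 lower, Rbl1 and Cdkn2c higher), against 27.4%, with 13.4% higher and 14.0% lower. Cdkn2d and Rbl2 passed the test at no stage. The 3 comparisons use separate libraries, but all share 1 estimate of the spread. Over all tested genes the median log2 fold change lay between -0.01 and 0.00 in the 3 comparisons.

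**Figure D1:**
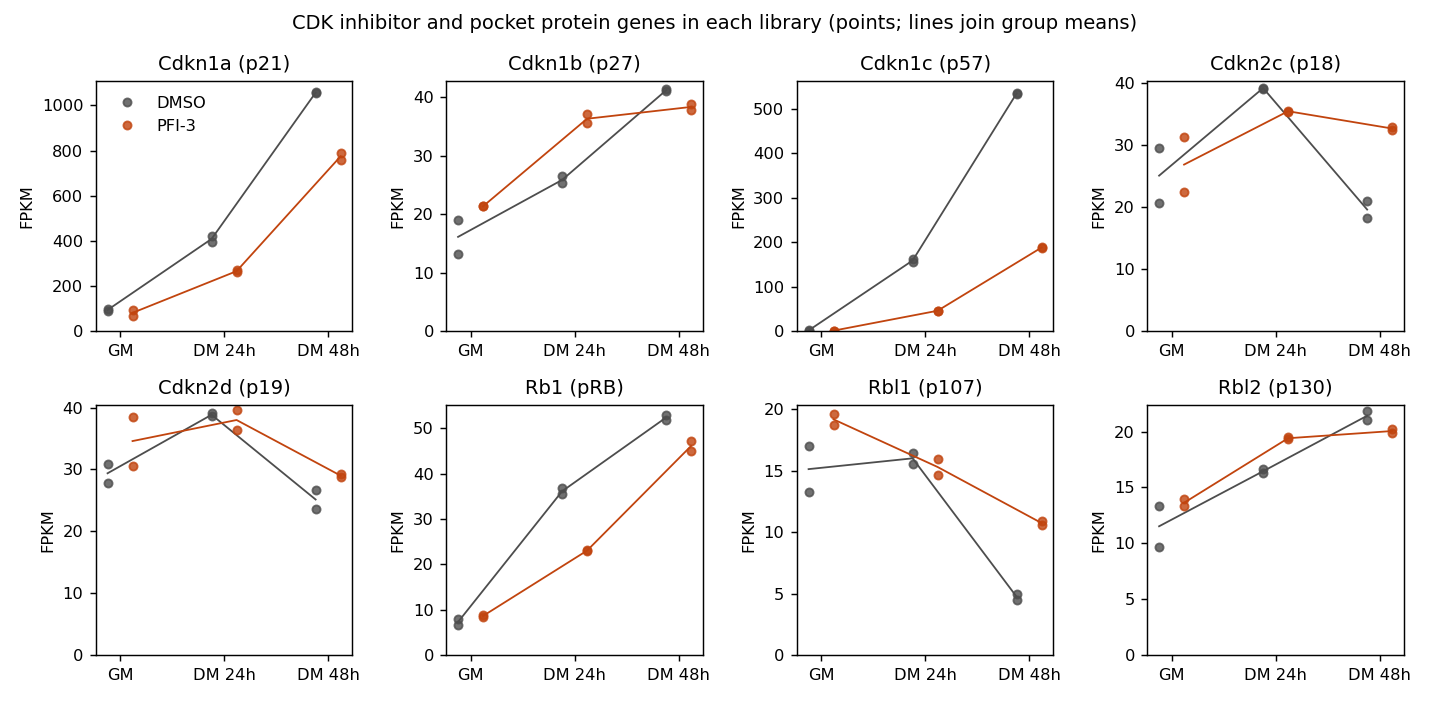
FPKM of each of the 8 genes (vertical axes, each from 0) by stage, with 1 point per library, DMSO in grey and PFI-3 in orange, and lines joining group means of 2 libraries. Cdkn1c reached 534 and 536 FPKM in the DMSO libraries at DM 48h and 188 and 189 in the PFI-3 libraries, while Rbl1 was at 4.47 and 5.00 against 10.6 and 10.9.

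Libraries held 12576374 to 13658352 expected counts. The GM pairs were less alike than the others: the log2 ratio between libraries B and A, over genes averaging 50 counts or more, had an SD of 0.333 (DMSO) and 0.316 (PFI-3), against 0.138 to 0.145 in the DM pairs. The labels call the 2 libraries of a group biological duplicates but do not say how their cultures were separated. The p-values thus measure only a spread between libraries, pooled over the 6 groups. As the GM pairs varied more than the DM pairs, the SE and p-values of comparisons with GM may be too small. Myoblast markers (Myod1, Myf5, Des and Cdh15) were detected in every group, 4 of 4. In GM they summed to 291 to 322 FPKM with DMSO and 205 to 261 with PFI-3. At DM 24h they summed to 668 to 673 and 507 to 516, and at DM 48h to 1113 to 1151 and 995 to 1037. Myf5 went the other way at DM 24h (19.4 to 21.4 with DMSO, 24.0 to 26.4 with PFI-3). The 8 markers of differentiating muscle had a summed level of 2230 to 2240 FPKM in DM 24h DMSO libraries and of 910 to 912 in their PFI-3 counterparts. A day later the sums were 14219 to 14300 with DMSO, against 9472 to 9582 with PFI-3. This sum moved with Cdkn1a, Cdkn1c and Rb1, and its part in their lower values was not tested. In RNA from whole cultures, fewer cells of a type and less RNA per cell cannot be told apart.

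Cdkn1c encodes p57 and lies on chromosome 7 (143458339 to 143461059, RefSeq, GRCm38.p6) in an imprinted domain. It had the highest ratio of highest to lowest group mean of the 8 genes. In GM its level was 1.08 and 2.24 FPKM with DMSO (27 and 57 expected counts) and 0.98 and 1.48 with PFI-3 (24 and 37 counts). The pairs overlapped and the difference was not called (log2 fold change -0.54 ± 0.28 SE, adjusted p = 0.229, edgeR). Over the 13 alternatives the value ran from -0.94 (without GM DMSO library A, the only call) to 0.05.

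At DM 24h Cdkn1c stood at 156 and 162 FPKM with DMSO and at 46.5 and 45.5 with PFI-3. At DM 48h it stood at 534 and 536 with DMSO and at 188 and 189 with PFI-3. At both times every DMSO library lay far above every PFI-3 library, and the PFI-3 libraries of DM 48h lay above the DMSO libraries of DM 24h. Cdkn1c was lower with PFI-3 at DM 24h, by a log2 fold change of -1.84 ± 0.12 or a fold of 0.28 (adjusted p = 9.99e-07, edgeR). At DM 48h the log2 fold change was -1.59 ± 0.11, a fold of 0.331 (adjusted p = 1.56e-06, edgeR). Both calls held under all 13 alternatives run for each.

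The rise of Cdkn1c itself was large under either treatment. From GM to DM 48h the DMSO libraries rose 322-fold (log2 8.33 ± 0.17, adjusted p = 1.11e-12, edgeR). In rank by mean FPKM, Cdkn1c went from 10000 in GM to 124 at DM 48h with DMSO, and to 337 with PFI-3. From DM 24h to DM 48h it rose 3.51-fold with DMSO and 4.16-fold with PFI-3, and the difference of the PFI-3 effect between these times was not called (difference 0.24 ± 0.16 log2, adjusted p = 0.357, edgeR), though it was called with only the libraries compared (adjusted p = 0.00284). The PFI-3 effect at DM 24h was lower than that in GM (difference -1.30 ± 0.31 log2, adjusted p = 0.0414, edgeR). That difference lost its call without either DM 24h DMSO library (adjusted p 0.115 without A and 0.12 without B), either DM 24h PFI-3 library (0.12 and 0.118) or GM PFI-3 library B (0.176). It was also lost with limma on log2(FPKM + 0.1) (0.0674) and with only the libraries compared (0.149).

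Of 8 imprinted-domain neighbours of Cdkn1c in the list with a row of counts, 5 passed the filter. Their median PFI-3 effect was -0.08 log2 a day into differentiation and 0.02 at DM 48h. At DM 24h 1 of the 5 rose and 1 fell, where 12.2% of all tested genes were called higher and 11.4% lower. The gene that rose was Slc22a18, a transporter gene named after its value was seen (2.06, SE and level not given). Cars, a tRNA synthetase gene, fell (-0.91 ± 0.21). At DM 48h 1 fell, Cd81, a tetraspanin gene (-0.44 ± 0.074), where 14.0% of all tested genes were called lower. Both DM 24h counts were 0 without DMSO library A or either PFI-3 library of that time, and the DM 48h count was 1 without any 1 library.

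Cdkn1a encodes p21, a target of MyoD and of p53 (chromosome 17, 29090979 to 29100722). It was the most abundant of the 8 per length in all 12 libraries. In GM it measured 96.8 and 91.4 FPKM with DMSO and 69.5 and 93.2 with PFI-3. These pairs overlapped, since library B with PFI-3 lay between the DMSO libraries. The GM difference was not called (log2 -0.31 ± 0.11, adjusted p = 0.0957, edgeR), but was without GM DMSO library B (adjusted p = 0.0376) or GM PFI-3 library B (0.00206).

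At DM 24h Cdkn1a measured 394 and 423 FPKM with DMSO against 262 and 270.0 with PFI-3. At DM 48h the DMSO libraries measured 1059 and 1054 and the PFI-3 libraries 790.2 and 759. PFI-3 libraries were the lower at both times, without overlap. The earlier difference was -0.67 ± 0.11 log2 (fold 0.629, adjusted p = 0.00115) and the later one -0.54 ± 0.11 (fold 0.69, adjusted p = 0.00313, both edgeR). Both calls held under all 13 alternatives. With DMSO, Cdkn1a rose 11.3-fold from GM to DM 48h (log2 3.50 ± 0.12, adjusted p = 1.16e-10, edgeR), and its rank by mean FPKM went from 823 to 43.

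Of 12 other p53-related genes, 1 rose and 1 fell with PFI-3 in GM, 3 rose and none fell at DM 24h, and 1 rose and 2 fell at DM 48h, where 11.6%, 23.6% and 27.4% of all tested genes were called. The medians were -0.09, 0.10 and 0.01 log2. Sesn2, a stress-induced inhibitor of mTORC1 signalling, rose at each stage (0.47 ± 0.1, 0.58 ± 0.11 and 0.69 ± 0.12). Gadd45a, a growth arrest gene, rose at DM 24h (0.62 ± 0.17). Bbc3, which encodes the pro-apoptotic protein PUMA, fell at DM 48h (-0.77 ± 0.14). Each was called in edgeR's test. Leaving out a library gave 2 higher at DM 24h and 1 lower at DM 48h in every case, and 0 (without GM PFI-3 library A) to 3 higher in GM (without GM PFI-3 library B), with 1 to 3 lower.

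Cdkn1b encodes p27, whose protein level is known to be set largely by degradation (chromosome 6, 134920401 to 134925525). Its DMSO libraries measured 13.2 and 19.1 FPKM while proliferating, 25.3 and 26.5 on DM 24h, and 41.4 and 41.0 by DM 48h. The PFI-3 libraries measured 21.4 and 21.3, 37.1 and 35.6, and 37.8 and 38.8. PFI-3 was the higher in GM and at DM 24h and the lower at DM 48h, without overlap at any stage. Only the DM 24h difference was called (log2 0.44 ± 0.11, adjusted p = 0.0122, edgeR). It lost that call when any 1 of the 4 libraries was left out, with adjusted p 0.102 (DMSO A), 0.0559 (DMSO B), 0.0914 (PFI-3 A) and 0.0545 (PFI-3 B). The GM difference (0.31 ± 0.11, adjusted p = 0.0993, edgeR) was called without GM DMSO library B (adjusted p = 0.000655). At DM 48h the log2 difference was -0.19 ± 0.11 (adjusted p = 0.208, edgeR), which was called with only the libraries compared (adjusted p = 0.005).

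With DMSO, Cdkn1b rose by 0.63 ± 0.11 log2 to DM 24h and by a further 0.73 ± 0.11 to DM 48h (adjusted p = 0.00041 and 0.000139, edgeR). With PFI-3 it rose by 0.77 ± 0.11 to DM 24h (adjusted p = 8.19e-05, edgeR) and the later step was 0.10 ± 0.11 (adjusted p = 0.523, edgeR).

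**Figure D2:**
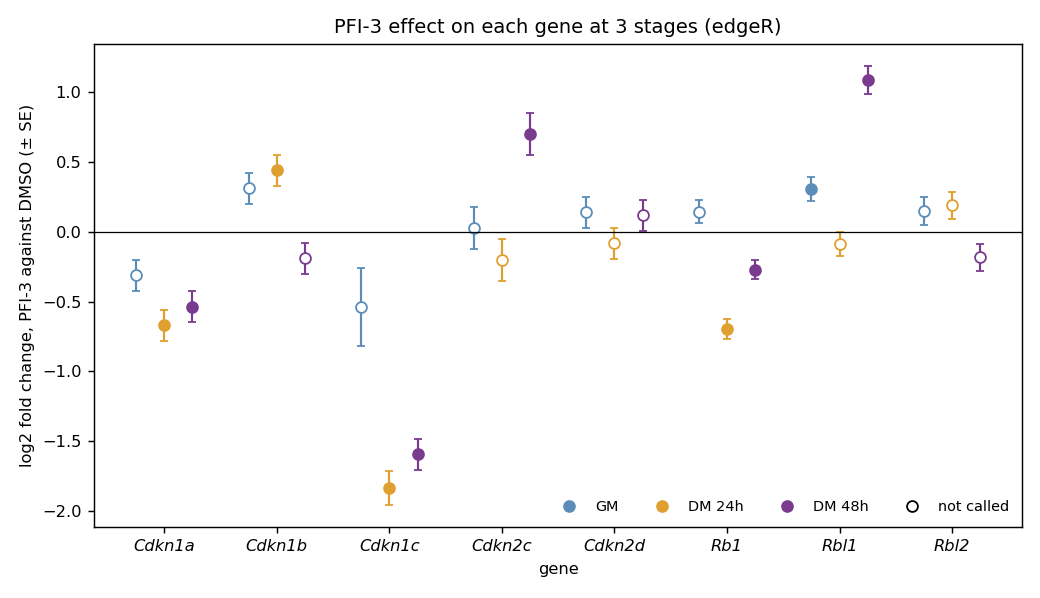
Log2 fold change of PFI-3 against DMSO for each gene by stage (GM blue, DM 24h yellow, DM 48h purple), with SE bars and 2 libraries per group. Open points were not called in edgeR's test. The lowest points are Cdkn1c at DM 24h and DM 48h (-1.84 and -1.59) and the highest is Rbl1 at DM 48h (1.09).

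The INK4 genes followed a different course with DMSO, with a peak at DM 24h. The PFI-3 effect did not differ detectably between GM and DM 24h for Cdkn2c (difference -0.23 ± 0.21 log2, adjusted p = 0.633, edgeR). Nor did it for Cdkn2d (-0.22 ± 0.15, adjusted p = 0.508, edgeR). With PFI-3 the rise to DM 24h was 0.37 ± 0.15 log2 for Cdkn2c (adjusted p = 0.0463, edgeR), a call lost with DESeq2 and with limma. For Cdkn2d it was 0.13 ± 0.11 and was not called (adjusted p = 0.31, edgeR). Cdkn2c encodes p18 (chromosome 4, 109660876 to 109666756). With DMSO it measured 20.6 and 29.6 FPKM while proliferating, 39.3 and 39.2 after 24 h, and 18.3 and 21.02 after 48 h. With PFI-3 it measured 22.5 and 31.3, then 35.6 and 35.4, then 32.9 and 32.5. The GM pairs overlapped. At DM 24h both PFI-3 libraries lay below both DMSO libraries, but the difference was not called (log2 -0.20 ± 0.15, adjusted p = 0.348, edgeR). It was called with only the libraries compared (adjusted p = 0.00424, edgeR). At DM 48h both PFI-3 libraries lay above both DMSO libraries.

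The fall of Cdkn2c from DM 24h to DM 48h was 1.02 log2 with DMSO (-1.02 ± 0.15, adjusted p = 0.000165, edgeR) and was not detected with PFI-3 (-0.11 ± 0.15, adjusted p = 0.615, edgeR). PFI-3 thus stood 1.62-fold above DMSO at DM 48h (log2 0.70 ± 0.15, adjusted p = 0.00517, edgeR). This call was lost without DM 48h DMSO library A (adjusted p = 0.0642). The PFI-3 effect differed between DM 24h and DM 48h by 0.90 ± 0.21 (adjusted p = 0.0165, edgeR). That call was lost on leaving out any 1 of 7 of the 8 libraries, the exception being DM 48h DMSO library B, with adjusted p from 0.0581 to 0.09. From GM to DM 48h with DMSO the log2 fold change was -0.41 ± 0.15 (adjusted p = 0.0294, edgeR), a call lost on the FPKM scale and without DM 48h DMSO library A (adjusted p = 0.174) or GM DMSO library B (0.28). The gene has 2 RefSeq transcripts, and its mean transcript length as deposited was 1920 and 1910 bases in the DM 48h DMSO libraries and 1986 and 1972 in the PFI-3 libraries. FPKM is scaled by this length, and the test used counts.

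Cdkn2d encodes p19 (chromosome 9, 21288459 to 21291421) and had the lowest ratio of highest to lowest group mean, from 25.1 to 38.8 FPKM. DMSO libraries measured 27.8 and 30.9 FPKM in GM, then 39.1 and 38.6, then 23.6 and 26.7 at the last stage. PFI-3 libraries measured 30.6 and 38.6, 39.7 and 36.3, and 29.2 and 28.8. The pairs overlapped in GM and at DM 24h but not at DM 48h, and no PFI-3 difference was called (0.14, -0.08 and 0.12 log2, each ± 0.11, with adjusted p = 0.439, 0.624 and 0.483, edgeR). With DMSO it rose to DM 24h (0.35 ± 0.11, adjusted p = 0.0141) and fell by DM 48h (-0.57 ± 0.11, adjusted p = 0.00116, both edgeR). The rise lost its call without GM DMSO library A (adjusted p = 0.0534) or either DM 24h DMSO library (0.0609 and 0.0578).

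The pocket protein genes exchanged places during differentiation. Rb1 encodes pRB (chromosome 14, 73192858 to 73325951). DMSO libraries measured 6.53 and 8.01 FPKM in GM, then 35.5 and 36.7, then 52.9 and 51.9 by DM 48h. PFI-3 libraries measured 8.73 and 8.46, then 22.9 and 23.1, then 44.9 and 47.3. PFI-3 libraries were the higher in GM and the lower at both DM times, with no overlap at any stage.

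Rb1 rose 7.27-fold with DMSO from GM to DM 48h (log2 2.86 ± 0.077, adjusted p = 1.41e-11, edgeR). With PFI-3 it was lower by 0.70 log2 at DM 24h (-0.70 ± 0.071, fold 0.616, adjusted p = 3.49e-05, edgeR), a call that held under all 13 alternatives. At DM 48h the difference was -0.27 ± 0.069 (fold 0.829, adjusted p = 0.0121, edgeR). The later call was lost on the FPKM scale (limma) and without DM 48h DMSO library A (adjusted p = 0.0786), DMSO library B (0.0557) or PFI-3 library A (0.11). In GM it was not called (0.14 ± 0.08, adjusted p = 0.262, edgeR), except without GM DMSO library B (adjusted p = 0.043).

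Tests of the difference between stages were called for Rb1 and 4 others. Exposure to PFI-3 was longer at each later stage, so stage and length of exposure cannot be told apart in these tests. For the change of the PFI-3 effect from GM to DM 24h, 2 of the 8 genes were called, both downward (Cdkn1c and Rb1), where 3.37% of tested genes were called, 1.78% upward and 1.59% downward. From DM 24h to DM 48h 4 were called, 3 upward (Cdkn2c, Rb1 and Rbl1) and 1 downward (Cdkn1b), against 12.1%, with 7.12% upward and 4.97% downward. From GM to DM 48h 3 were called, Rbl1 upward and Cdkn1c and Rb1 downward, against 14.5%, with 8.25% upward and 6.29% downward.

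The PFI-3 effect on Rb1 was lower at DM 24h than in GM by 0.84 log2 (-0.84 ± 0.11, adjusted p = 0.00209, edgeR), under all 17 alternatives. From DM 24h to DM 48h Rb1 rose by 1.03 ± 0.071 with PFI-3 and by 0.60 ± 0.07 with DMSO (adjusted p = 4.91e-07 and 1.99e-05, edgeR). The difference of 0.43 ± 0.099 (adjusted p = 0.0152, edgeR) lost its call on leaving out any 1 of 6 libraries, all but DM 24h DMSO A and DM 48h PFI-3 A, with adjusted p from 0.0574 to 0.0806.

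Rbl1 encodes p107, the pocket protein typical of cycling cells (chromosome 2, 157145893 to 157204534). DMSO libraries measured 13.3 and 17.0 FPKM in GM, then 16.5 and 15.6, then 4.47 and 5.00 by DM 48h. PFI-3 libraries measured 18.8 and 19.6, then 14.7 and 15.9, then 10.6 and 10.9. The pairs overlapped at DM 24h alone, and at DM 48h the PFI-3 libraries lay above both DMSO libraries.

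Rbl1 fell by 1.67 log2 with DMSO between DM 24h and DM 48h (-1.67 ± 0.097, adjusted p = 4.73e-08, edgeR). With PFI-3 it fell by 0.49 (-0.49 ± 0.09, adjusted p = 0.00176, edgeR). At DM 48h PFI-3 was 2.13-fold above DMSO (log2 1.09 ± 0.099, adjusted p = 9.92e-06, edgeR), under all 13 alternatives. The PFI-3 effect at DM 48h exceeded that at DM 24h by 1.18 ± 0.13 (adjusted p = 0.000145, edgeR) and that in GM by 0.78 ± 0.13 (adjusted p = 0.00209, edgeR). Among the promoters printed above, that of Rbl1 is the one with E2F-type motifs, a pair next to the start. Cdkn2c, also called higher at DM 48h, has 2 starts in RefSeq and no TTTNNCGC in the 250 bases before either. The part of such motifs in these levels was not tested. Rbl1 was also the 1 gene called in GM (0.31 ± 0.087, adjusted p = 0.0423, edgeR). That call was lost in 5 of 9 other fits and without GM DMSO library A (adjusted p = 0.192), GM PFI-3 library A (0.0629) or GM PFI-3 library B (0.109).

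Rbl2 encodes p130, the pocket protein of resting cells (chromosome 8, 91070057 to 91123844). DMSO libraries measured 9.69 and 13.4 FPKM in GM, then 16.6 and 16.3, then 21.04 and 21.8 by DM 48h. PFI-3 libraries measured 13.3 and 13.9, 19.5 and 19.3, and 20.2 and 19.9. The pairs overlapped in GM, then PFI-3 was the higher at DM 24h and the lower at DM 48h. None of these differences was called (0.15, 0.19 and -0.18 log2, with SE 0.1, 0.098 and 0.097 and adjusted p = 0.361, 0.183 and 0.19, edgeR), except that of GM without GM DMSO library B (adjusted p = 0.00702). With only the libraries compared, the DM 24h and DM 48h differences of Rbl2 were called (adjusted p = 0.00332 and 0.00646, edgeR). With DMSO, Rbl2 rose by 0.91 ± 0.099 from GM to DM 48h (adjusted p = 3.93e-06, edgeR).

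Per length, Rbl1 made up 45.0% and 44.3% of the summed FPKM of the 3 pocket protein genes in the GM DMSO libraries and 5.70% and 6.36% at DM 48h. With PFI-3 its share at DM 48h was 14.0% in both libraries. The share of Rb1 went from 22.1% and 20.9% to 67.5% and 65.9% with DMSO, and to 59.3% and 60.6% with PFI-3. The summed level of the 3 genes differed little at DM 48h, with 78.5 ± 0.205 FPKM under DMSO and 76.9 ± 1.63 under PFI-3 (SD, n = 2). It differed more at the other stages, and the libraries of the 2 treatments did not overlap at any stage. In GM it was 33.9 ± 6.28 with DMSO and 41.4 ± 0.87 with PFI-3, and at DM 24h 68.6 ± 0.05 and 57.7 ± 0.884. No test was run on these shares and sums.

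**Figure D3:**
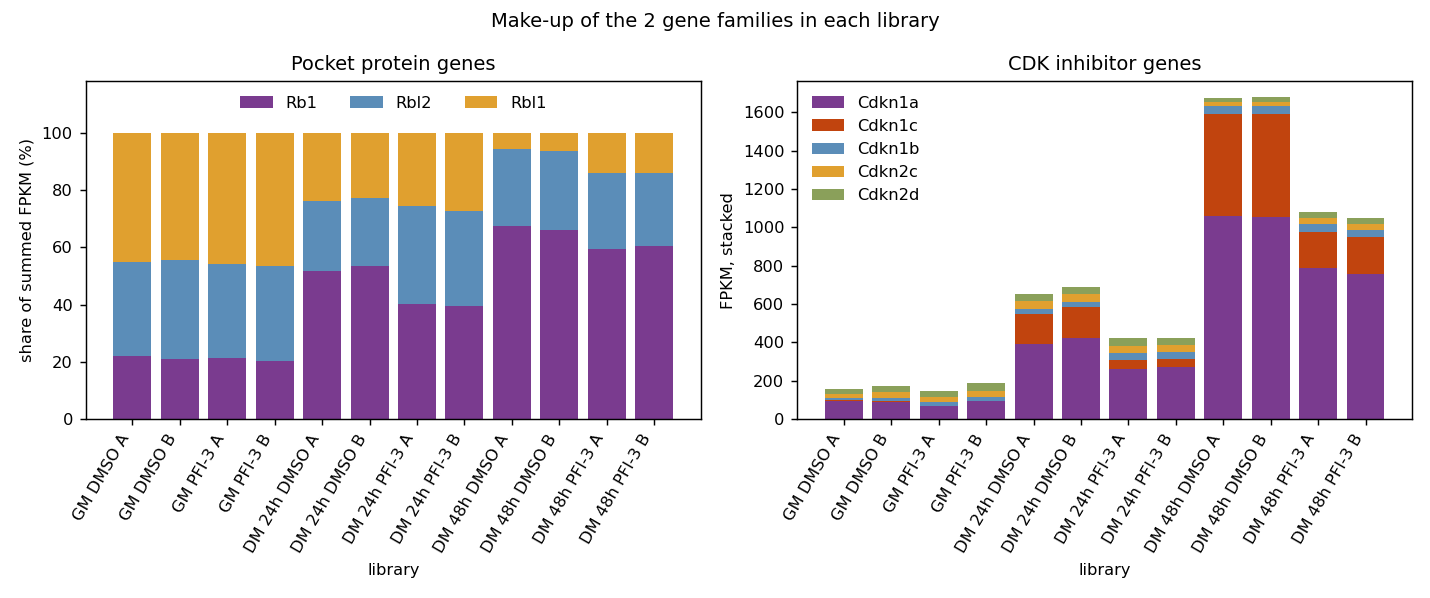
Left, share of each pocket protein gene in their summed FPKM (percent), and right, stacked FPKM of the 5 CDK inhibitor genes, with 1 bar per library. Rbl1 holds 5.70% and 6.36% of the pocket sum in the DMSO libraries at DM 48h and 14.0% in the PFI-3 libraries, and the inhibitor sum is 1677 FPKM on average with DMSO and 1063 with PFI-3.

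The 5 CDK inhibitor genes summed to 166.4 ± 9.77 FPKM in the GM DMSO group and 165.4 ± 28.9 in the GM PFI-3 group (SD, n = 2). The DM 24h sums were 672 ± 25.6 and 422 ± 1.48, and those of DM 48h 1677 ± 2.28 and 1063 ± 21.3. The PFI-3 sums were 0.628 and 0.634 of the DMSO sums at these times. The mix differed too. At DM 48h Cdkn1c held 31.9% ± 0.0375 of the DMSO sum and 17.7% ± 0.417 of the PFI-3 sum. Cdkn1a was 1.98 ± 0.0106 times as abundant as Cdkn1c with DMSO and 4.12 ± 0.132 times with PFI-3. Cdkn1b gave 2.46% ± 0.0177 and 3.61% ± 0.138.

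The other genes of the pathway are read against the share of all tested genes called with PFI-3 (in GM 5.46% higher, 6.15% lower; at DM 24h 12.2% higher, 11.4% lower; at DM 48h 13.4% higher, 14.0% lower). All 14 genes of the replication list, which E2F factors are known to drive, were called higher with PFI-3 at DM 48h (median 1.12 log2). In GM none was called (median -0.08), and at DM 24h 2 were lower and none higher (median -0.07). An example is Cdc6, a loader of the replicative helicase (1.76 ± 0.2). Without DM 48h DMSO library A, 13 of the 14 were called. The 2 lower at DM 24h became 0 on leaving out any of its 4 libraries, and without GM DMSO library B 5 were lower in GM. With DMSO alone, all 14 fell from GM to DM 48h (median -2.61), where 35.9% of tested genes were called lower. These DM 48h rises share the DMSO libraries with the rise of Rbl1.

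Cyclins and kinases, the partners that CDK inhibitors bind, moved alike at DM 48h: 10 of 12 were higher and 2 lower (median 0.95). The 2 lower genes, named after their values were seen, were Ccnd3 (-0.55) and Cdk2 (-0.40). Ccnd2, a D-type cyclin, rose at each stage (0.84 ± 0.13, 1.67 ± 0.15 and 2.26 ± 0.16), and Ccne1, which encodes cyclin E1, rose by 1.61 ± 0.13 at DM 48h. At DM 24h 2 were higher and 3 lower, and in GM 1 was higher and 1 lower, Cdk4 (-0.43 ± 0.06). The list medians there were -0.07 and -0.13. The DM 48h counts were the same without any 1 of its libraries. Leaving out a library gave 1 higher and 2 to 3 lower at DM 24h, and 1 to 2 higher and 1 to 4 lower in GM, the 4 without GM PFI-3 library B.

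Of 10 E2F and DP genes, 4 rose and none fell at DM 48h (median 0.19), among them E2f1, an activator (1.10 ± 0.089), and E2f7, a repressor (0.86 ± 0.091). At DM 24h 1 rose and 3 fell (median -0.09), with E2f2, an activator, at -0.80 ± 0.16. In GM 3 rose and 2 fell (median -0.20). Of 7 genes of the MuvB core and its partners, which with p107 or p130 form the DREAM repressor, 2 fell in GM, 2 fell at DM 24h and 3 rose at DM 48h (medians 0.00, -0.13 and 0.20). Those of GM were Mybl2 (-0.51 ± 0.13) and Rbbp4, a histone-binding core subunit (-0.21 ± 0.056). Mybl2 and Foxm1, activators that take over MuvB in cycling cells, fell at DM 24h (-0.61 ± 0.14 and -0.36 ± 0.068) and rose at DM 48h (1.16 ± 0.17 and 0.94 ± 0.072). The GM and DM 24h counts of both lists rest on single libraries. Lower E2F and DP genes ranged from 0 (without GM PFI-3 library A) to 4 (without GM DMSO library B) in GM and from 1 (without DM 24h PFI-3 library A or DMSO library B) to 2 at DM 24h, and lower MuvB genes from 0 (without GM PFI-3 library A) to 2 in GM and from 1 to 2 at DM 24h. The higher E2F and DP genes numbered 1 in GM without library B of either treatment, and 0 at DM 24h without either DMSO library or PFI-3 library B. The higher counts of DM 48h were 3 to 4 and 3.

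Genes of the ubiquitin ligases that act on p21 and p27 showed no common direction. At DM 48h 2 of 7 rose and 2 fell (median -0.06). Dtl, the substrate receptor of the ligase that degrades p21 in S phase, rose by 1.39 ± 0.11, and Cks1b, the cofactor of Skp2, by 0.71 ± 0.098. In GM and at DM 24h 1 of 7 fell at each stage, Ddb1 (-0.30 ± 0.059) and Cul1 (-0.24 ± 0.07). Without a library, the lower genes numbered 0 to 1 at DM 48h, 0 at DM 24h and 1 to 2 in GM, while the 2 that rose at DM 48h were 2 throughout.

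**Figure D4:**
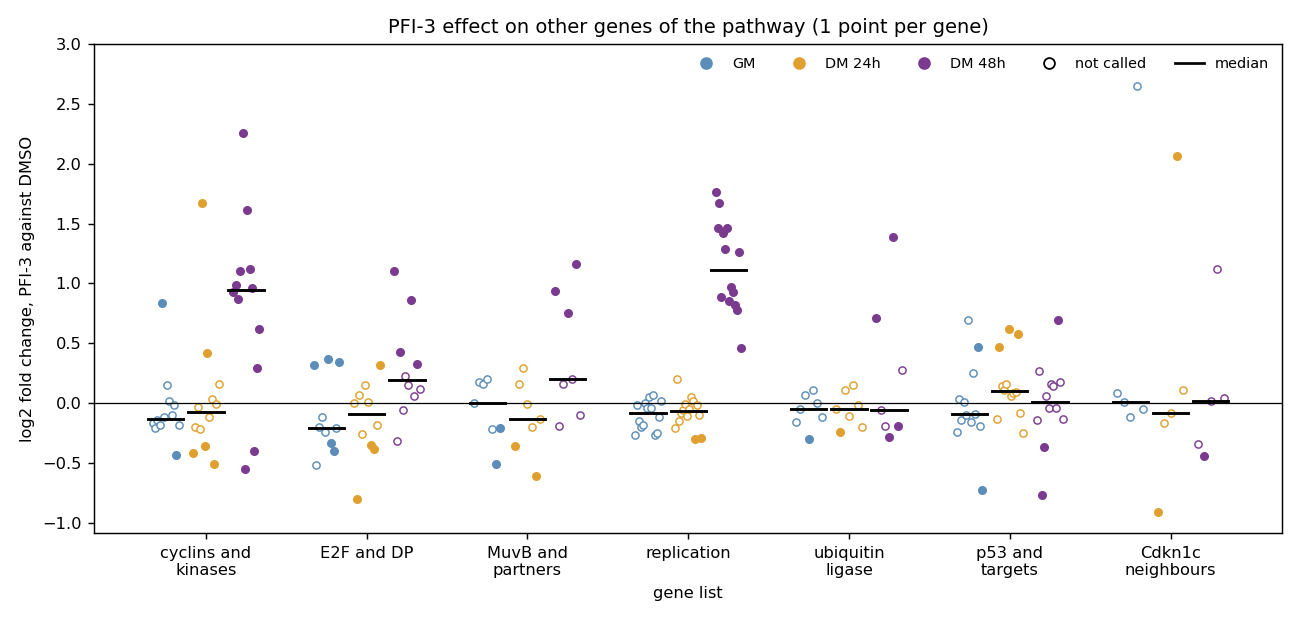
Log2 fold change of PFI-3 against DMSO for the genes of 7 lists, with 1 point per gene, GM in blue, DM 24h in yellow and DM 48h in purple, open points not called in edgeR's test, and black bars at the medians. At DM 48h the medians of the replication and cyclin lists are 1.12 and 0.95, while those of the other 5 lists lie between -0.06 and 0.20.

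In the order of group means, Cdkn1a and Cdkn1c ran from GM through DM 24h to DM 48h, with PFI-3 below DMSO at each stage and an overlap only between the GM groups. Rb1 had the same order except that DMSO was the lowest of all in GM, and no neighbours overlapped. Rbl1 was lowest at DM 48h with DMSO, followed by DM 48h with PFI-3, GM with DMSO, DM 24h with PFI-3, DM 24h with DMSO and GM with PFI-3. Cdkn2d had 4 of its 5 neighbouring pairs overlapping.

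Likeness of pattern was measured by Pearson's r of log2(CPM + 1) over the 12 libraries, as a description, among the 10366 genes averaging 5 CPM or more. These libraries fall into 6 groups and share the large steps between stages, so high values are common. Cdkn1a was nearest to Mylk4, Pgm5 and Tmem38a (0.996 each), and Cdkn1c to Sgca, Prelp and Trak1 (0.997 each). Rb1 was nearest to Arpp21 (0.999), Prelp (0.998) and Tnnt1 (0.997). Rbl1 was nearest to Cep135 (0.991), Bub1 and Brip1 (0.989 each). Cdkn1b and Rbl2 were each among the 3 nearest of the other (0.989), beside Scamp1 (0.991) and Zer1 (0.989) for Cdkn1b and Mvp (0.99) and Parp3 (0.989) for Rbl2. The INK4 genes had looser neighbours. Cdkn2c was nearest to Armcx2 (0.951) and Tbc1d8b (0.948), and Cdkn2d to Xiap (0.934), Rp2 (0.927) and Ttc26 (0.912). Between the 8 genes, r was 0.99 for Cdkn1c with Rb1, 0.82 for Cdkn2c with Cdkn2d and -0.80 for Rbl1 with Cdkn1a.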

How the data were processed

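Total RNA from 12 C2C12 libraries was sequenced, and groups and replicate letters were read from the sample titles. Each deposited table gives an expected count and an FPKM value per gene, per the file headers. The submitters' processing notes name HISAT, StringTie, Cufflinks, Bowtie, RSEM and DESeq2 and build mm10, without roles or versions. A gene with no row in a library's table was taken as 0 there, which no source states.

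After rounding, expected counts entered the quasi-likelihood test of edgeR 4.0.16 in R 4.3.3 (TMM scaling, filterByExpr, 12545 of 16288 genes kept). The fit took all 12 libraries in their 6 groups. P-values were adjusted by Benjamini-Hochberg over all tested genes, and called at under 0.05. Levels are given in FPKM as deposited. Alternatives were DESeq2-style size factors, DESeq2 1.42.0, no filter, a mean of at least 10 counts, limma 3.58.1 on log2(FPKM + 1) and log2(FPKM + 0.1), the letter as a block, only the libraries compared, and leaving out each library. Promoters came from RefSeq (GRCm38.p6), and figures from matplotlib 3.10.9.

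The members and lists were chosen with earlier results of these data known. All found members are named. Of each list, the 2 called genes with the largest change and a mean of at least 5 CPM could be named, and for likeness the 3 nearest genes. Some genes that this rule gives are not reported here. Lists are described by counts and medians without a test. Applying the alternatives to the lists was decided after seeing the data.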

Additional observations from a re-analysis of the deposited data

Results flagged for a closer look

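In all, 9 differences of the PFI-3 effect between stages passed edgeR's test of the difference itself (adjusted p under 0.05). Between DM 24h and GM, where 3.37% of tested genes were called, they were Cdkn1c (-1.30 ± 0.31 log2, adjusted p = 0.0414) and Rb1 (-0.84 ± 0.11, adjusted p = 0.00209). Between DM 48h and DM 24h, where 12.1% were called, they were Cdkn1b (-0.63 ± 0.15, adjusted p = 0.018), Cdkn2c (0.90 ± 0.21, adjusted p = 0.0165), Rb1 (0.43 ± 0.099, adjusted p = 0.0152) and Rbl1 (1.18 ± 0.13, adjusted p = 0.000145). Between DM 48h and GM, where 14.5% were called, they were Cdkn1c (-1.06 ± 0.3, adjusted p = 0.0371), Rb1 (-0.42 ± 0.11, adjusted p = 0.0214) and Rbl1 (0.78 ± 0.13, adjusted p = 0.00209).

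The differences share libraries and are not independent. Stage and length of exposure to PFI-3 cannot be told apart in them. Both Rbl1 differences and that of Rb1 between DM 24h and GM kept their call under all 17 alternatives. That of Cdkn1b lost it on leaving out any 1 of the 8 libraries, with adjusted p from 0.053 to 0.0902. Those of Cdkn1c and Rb1 between DM 48h and GM lost it without any 1 of the 4 DM 48h libraries (adjusted p from 0.0815 to 0.0856 and from 0.0505 to 0.0902), and that of Cdkn1c also without GM DMSO library A (0.0729) or GM PFI-3 library B (0.23). No group had the 4 samples needed to look for a sample far from the others.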

How the results depend on the processing

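No called value changed sign under any alternative. Over 88 fold changes of the 8 genes, 744 of the values from other fits kept their side of the threshold, 25 gained a call and 23 lost one. Leaving out a library kept 374, with 14 gained and 60 lost, and a lone sample was then assumed to vary like the other groups.

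The number of the 8 genes called for PFI-3 in GM (1) was 0 with DESeq2, with limma at either pseudocount and with only the libraries compared, with or without the replicate block, and 0 to 5 without a library. At DM 24h (4) it was 6 with only the libraries compared and 3 without any library. At DM 48h (5) it was 7 with only the libraries compared (with or without the block), 4 with limma and 3 to 5 without a library. For DM 24h minus GM (2) it was 1 with limma on log2(FPKM + 0.1) and with only the libraries compared, and 1 to 3 without a library. For DM 48h minus DM 24h (4) it was 7 with only the libraries compared and the block, and 1 to 2 without a library. For DM 48h minus GM (3) it was 5 with DESeq2, no filter or the block (with all or only the compared libraries), 1 with only the libraries compared, and 1 to 5 without a library. From DM 24h to DM 48h with PFI-3 (5) it was 4 without any library.

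The letters were not taken as pairs, since the labels do not say what they stand for. Same-letter libraries deviated together in GM (correlation 0.509) but not at DM 24h (0.036) or DM 48h (0.052). The GM tests may thus leave out a pairing. With the replicate block, 86 of 88 calls were the same, and Cdkn1b and Cdkn2c gained one for DM 48h minus GM (adjusted p = 0.0444 and 0.0276, edgeR). This block fits a single letter effect over all stages, so it cannot fully take up a deviation present in GM alone. The same calls under it therefore say little about pairing in GM.

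With only the libraries compared, the number of all genes called moved as well. For DM 24h minus GM it went from 423 to 79 (763 with the block). For DM 48h minus DM 24h it went from 1517 to 4154 (4336), and for DM 48h minus GM from 1824 to 1037 (2254). For PFI-3 against DMSO in GM it went from 1456 to 32 (741). For PFI-3 against DMSO at DM 24h it went from 2966 to 5583 (5719), and at DM 48h from 3438 to 5688 (6034). The cause was not tested. Leaving out a library gave 1190 to 2734, 1320 to 1469 and 1937 to 2073.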

Other observations

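The Cip/Kip and INK4 branches of the CDK inhibitors parted during differentiation when summed per length. Cdkn1a, Cdkn1b and Cdkn1c together went from 112 ± 1.23 FPKM in GM to 1632 ± 1.88 at DM 48h with DMSO, while Cdkn2c and Cdkn2d together went from 54.5 ± 8.54 to 44.8 ± 4.17 (SD, n = 2, no test). At DM 48h the PFI-3 sums were 1001 ± 20.8 for Cip/Kip and 61.7 ± 0.53 for INK4, which is 0.613 and 1.38 of the DMSO sums. The INK4 share of all CDK inhibitor FPKM was 32.7% ± 3.21 in GM with DMSO, 2.67% ± 0.245 at DM 48h with DMSO and 5.81% ± 0.0664 at DM 48h with PFI-3.

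Sums of markers of other lineages did not overlap between treatments in several of the stages. The 4 endothelial markers summed to at most 0.43 FPKM in any library and the fibroblast markers to at most 17.7. The fibroblast sum was 12.8 to 13.0 FPKM with DMSO and 15.7 to 17.7 with PFI-3 at DM 48h, and the immune sum (3 of 4 markers had a row) was 3.54 to 3.71 and 5.33 to 5.78. Of the fibroblast markers at DM 48h, Dcn and Pdgfra were higher with PFI-3. Dpt was lower with it (1.43 to 1.48, against 3.21 to 3.40 with DMSO), and Thy1 reached at most 0.09. The immune sum was 8.84 to 9.37 (DMSO) and 10.88 to 15.98 (PFI-3) while proliferating, then 5.08 to 5.20 and 7.99 to 8.31 on DM 24h. It came from Cd68 and Cd14, since Ptprc reached at most 0.03 in any library. The adipocyte sum (3 of 4 markers) was 4.28 to 4.44 (DMSO) and 7.38 to 8.58 (PFI-3) on DM 24h, and 6.96 to 7.61 and 6.33 to 6.52 by DM 48h. Cebpa made up nearly all of it (4.16 to 4.44 and 7.25 to 8.58 on DM 24h). Adipoq was not detected on DM 24h, and Fabp4 reached at most 0.13 then. The part of these sums in the results was not tested.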
